A study of Mus musculus with 14 samples.

Results

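The replication-dependent histone genes of the mouse, named Hist1h, Hist2h, Hist3h and Hist4h after the clusters they lie in, were followed through 3 tumour cell lines exposed to a RIG-I agonist. Members were chosen by symbol and by a measured value, at least 10 counts summed over the 14 libraries, and pseudogenes were left out. Of 70 genes with such a symbol, 67 were protein-coding, and 65 of these met the minimum, out of 34866 genes in the count tables. They comprise 6 genes for the linker histone H1, 17 for H2A, 17 for H2B, 12 for H3 and 13 for H4, of which 52 lie on chromosome 13 (Hist1), 10 on chromosome 3 (Hist2), 2 on chromosome 11 (Hist3) and 1 on chromosome 6 (Hist4). Just inside the minimum were Hist2h2ab with 12 summed counts and Hist3h2ba with 13. Just outside were Hist1h2aa with 6 and Hist1h2ba with 2.

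The cells were CT26 (colorectal carcinoma, strain BALB/c), E0771 (mammary carcinoma, C57BL/6) and MC38 (colon adenocarcinoma, C57BL/6). Each line was plated at 100000 cells per well and was given either the RIG-I agonist or its control at 0.5 ug/ml for 24 h. CT26 had 3 libraries per agonist, and E0771 and MC38 had 2 each. Cells without any agonist were not analysed here, and the control agonist is the reference throughout. Whether replicates were grown as separate cultures is not stated in the labels. The p-values therefore cover library-to-library spread alone, which may be technical. In comparisons of CT26 with the other lines, the line, its mouse strain, its count table and the run prefix of its columns cannot be told apart. E0771 and MC38 share the strain and the prefix, and differ in line and table.

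Core histones H2A, H2B, H3 and H4 form the protein spool of the nucleosome, and the linker histone H1 binds the DNA between nucleosomes. The clustered genes supply these proteins during DNA replication. Their mRNAs usually end in a short conserved hairpin, the histone stem-loop, which the stem-loop binding protein SLBP recognises, instead of a poly(A) tail. Some clustered genes can also give rise to longer, polyadenylated transcripts that run past the stem-loop. The libraries were made from poly(A)-selected RNA, so the values below are levels in RNA selected for a poly(A) tail. Whether some of the counts come from histone mRNA without a tail was not tested. How much histone mRNA without a tail the cells held was not measured. In bulk RNA, a different share of cells making an mRNA and a different amount per cell cannot be told apart.

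The hairpin is shown because it marks the end of the tail-less mRNA and lets the annotated transcripts be sorted by whether they continue beyond it. The transcripts of GENCODE M21 on GRCm38 were searched on the transcript strand for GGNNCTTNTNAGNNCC, a motif of 16 bases, and 46 of 65 members held it. Of the protein-coding genes without such a histone symbol, 90 (0.412%) held it too. The 2 arms of the stem are in capitals and the loop in lower case.
Hist1h1c, chr13:23739512-23739527 (+): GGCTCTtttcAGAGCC
Hist1h3e, chr13:23561903-23561918 (-): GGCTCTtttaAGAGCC
Hist1h4c, chr13:23698089-23698104 (-): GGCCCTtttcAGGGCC
Hist1h4i, chr13:22040966-22040981 (-): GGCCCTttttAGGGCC
Hist1h4j, chr13:21735437-21735452 (+): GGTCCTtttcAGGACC
The form of Hist1h1c was found in 26 members of types H1, H2A, H2B and H3, and that of Hist1h3e in 6. The form of Hist1h4c was found in 7 members, that of Hist1h4i in 2 and that of Hist1h4j in 2, all of them H4 genes. Another 3 forms occurred in 1 member each.

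In 23 members the longest annotated transcript ran more than 100 bases past the stem-loop, among them Hist1h1c (840 bases), Hist1h2ac (2010), Hist1h1d (4884) and Hist4h4 (2445). In another 23 the transcript that holds the stem-loop ended within 100 bases of it, as in Hist1h4n (31 bases) and Hist1h2ad (42). Of these, Hist1h2bp also has a longer transcript, of 621 bases, without the stem-loop. No stem-loop was found in the annotated transcripts of the other 19. Of these, Hist1h2bc, Hist2h2be, Hist1h2bq and Hist1h2br have a 3′ UTR of more than 100 bases, and 15 have a short one or none. Annotated transcripts with a 3′ UTR of 0 bases, such as those of Hist1h2bl, Hist1h2ai and Hist1h3h, end before a stem-loop could follow. For such members the absence describes the annotation and not the gene. Members resemble each other closely, and estimated counts divide reads that several genes share. The share of 31-base words of a member's transcripts found in no other gene had a median of 41.1% and was under 50% in 40 members. It was 97.2% for Hist2h2be and 88.6% for Hist1h1c, and 0 for Hist2h2aa2 and Hist2h3c1. Single values of members with a low share are uncertain.

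RefSeq promoters on GRCm38.p6, from 250 bases before to 50 after the gene start, were matched for 59 members. The TATA box TATAAA, searched on the gene's strand, was in 47.5% of them and in 8.32% of 32817 promoters of all genes. The CCAAT box, searched on both strands, was in 84.7% against 37.4%, and it was present in every matched H1, H2A, H2B and H3 promoter and in 3 of 12 H4 promoters. The octamer ATTTGCAT on either strand was in 6 of 16 H2A and 5 of 15 H2B promoters, and in 1.74% of all promoters. AAACACA, the H1 box, on either strand was in 5 of 6 H1 promoters and in 7.19% of all. A core of the interferon-stimulated response element (TTTC, any 2 bases, TTTC, on either strand) was in 1 of 59 members (1.69%) and in 3.43% of all promoters. None of these motifs contains another, neighbouring matches may share letters, and a match is a description only. The promoters of Hist1h1c, the member with the highest level, and Hist1h2ac, an H2A gene that rose in CT26, show the letters in capitals.
Hist1h1c, chr13:23738557-23738856 (+): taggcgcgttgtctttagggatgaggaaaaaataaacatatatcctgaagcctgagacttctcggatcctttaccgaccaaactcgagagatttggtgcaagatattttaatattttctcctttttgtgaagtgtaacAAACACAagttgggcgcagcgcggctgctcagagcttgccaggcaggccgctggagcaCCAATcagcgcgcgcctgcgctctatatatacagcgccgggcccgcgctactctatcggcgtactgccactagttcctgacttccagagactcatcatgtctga
Hist1h2ac, chr13:23683910-23684209 (-): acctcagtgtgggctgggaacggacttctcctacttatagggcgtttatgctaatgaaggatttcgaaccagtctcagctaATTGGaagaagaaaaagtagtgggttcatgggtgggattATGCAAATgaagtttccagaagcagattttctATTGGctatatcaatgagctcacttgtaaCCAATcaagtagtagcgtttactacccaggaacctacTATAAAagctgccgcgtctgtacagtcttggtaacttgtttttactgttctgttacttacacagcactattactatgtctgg
In the first sequence the capitals mark the H1 box and a CCAAT box, and in the second they mark CCAAT boxes on both strands, the octamer and a TATA box whose first base lies 32 bases before the start.

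The CT26 libraries held 32826742 to 40564102 counts each, those of E0771 12413347 to 13399247, and those of MC38 12347361 to 18964563. The 65 members together held 455 to 6156 of the counts of a library. Levels are given as CPM, counts scaled to a common library size. The agonist response genes Ifnb1, Ifit1, Isg15, Cxcl10 and Zbp1 rose in each line (5 of 5 called). The 10 leukocyte markers summed to between 3.46 and 4.96 CPM in CT26, and no more than 16.7 CPM elsewhere. The 5 endothelial markers summed to 1.63 to 2.73 CPM in the CT26 controls and 3.73 to 4.21 CPM in the CT26 RIG-I libraries, with 1 of 3 tested called higher. Epithelial markers, a check of the carcinoma labels, summed to between 210 and 277 CPM in E0771, 59.3 and 66.0 CPM in CT26, and 14.8 and 18.7 CPM in MC38. Of the 16, 4 had no count in E0771, 2 in CT26 and 6 in MC38. Mesenchymal sums exceeded epithelial sums in every line, so the check did not settle the carcinoma labels. Mesenchymal markers summed to 5078 to 5535 CPM in the CT26 controls and 4308 to 4616 CPM in the CT26 RIG-I libraries, with 5 of 7 tested called lower. In E0771 they summed to 3091 to 3259 against 2171 to 2396 CPM, with 0 of 6 called. In MC38 they summed to 2089 to 2111 against 1655 to 1699 CPM, with 5 of 7 called lower. The shares of all genes called lower were 18.6% in CT26, 0.0256% in E0771 and 16.9% in MC38. The part of these markers in the results below was not tested.

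Summed histone gene levels under the RIG-I agonist were higher in CT26, overlapped with the controls in E0771 and were lower in MC38. The MC38 difference lay mostly in the H2B genes. Summed over all 65 members, without any filter on low counts, the CT26 control libraries stood at 40.8, 42.7 and 51.1 CPM and the RIG-I libraries at 159, 162 and 148 CPM. The groups did not overlap, and the means of 44.9 ± 5.48 and 156 ± 7.25 CPM (SD, n = 3) differed 3.48-fold. In E0771 the control libraries stood at 109 and 72.8 CPM and the RIG-I libraries at 129 and 76.5 CPM. The E0771 groups overlapped (90.7 ± 25.3 against 103 ± 37.1 CPM, SD, n = 2). In MC38 the control libraries stood at 51.4 and 43.7 CPM and the RIG-I libraries at 36.3 and 38.6 CPM, so that both RIG-I libraries lay below both controls (47.5 ± 5.49 against 37.5 ± 1.62 CPM, SD, n = 2). These sums carry no test, because the members were chosen with results in view.

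All 5 histone types were higher in every CT26 RIG-I library than in every CT26 control library. The summed H2B level had a ratio of 4.13, with a mean of 57.9 ± 2.84 CPM (SD) in the RIG-I libraries. H1 went from 15.3 ± 1.32 to 54.5 ± 2.03 CPM, a ratio of 3.55, and H4 from 5.19 ± 1.03 to 18.3 ± 0.405 CPM, a ratio of 3.53. H3 had a ratio of 3.00 and H2A the lowest, with or without the 3 most abundant genes, 2.26 (7.25 ± 0.709 to 16.4 ± 1.93 CPM). Hist1h1c, Hist1h2bc and Hist2h2be together made up 49.3% of the control level in CT26, and the ratio over the 62 other members was 3.35. Without these 3 genes the ratio was 4.79 for H1 and 4.35 for H2B, so the order of these types depends on them. In MC38 the H2B sum was lower in both RIG-I libraries (17.9 ± 1.77 against 10.9 ± 0.692 CPM, a ratio of 0.606), as was the H4 sum (a ratio of 0.889), while H1, H2A and H3 overlapped. In E0771 the H2A sum was above both controls in both RIG-I libraries (10.5 ± 0.18 against 12.9 ± 2.78 CPM), and the other 4 types overlapped. Of the 17 H2A genes in E0771, the RIG-I libraries lay wholly above the controls in 2 and wholly below in 2. Over all genes with 10 summed counts these shares were 16.1% and 16.3%. Hist3h2a, among those above, had 36 and 30 counts in the controls and 77 and 71 in the RIG-I libraries. Its mean level rose by more than the H2A sum, so the other H2A genes together did not rise.

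**Figure D1:**
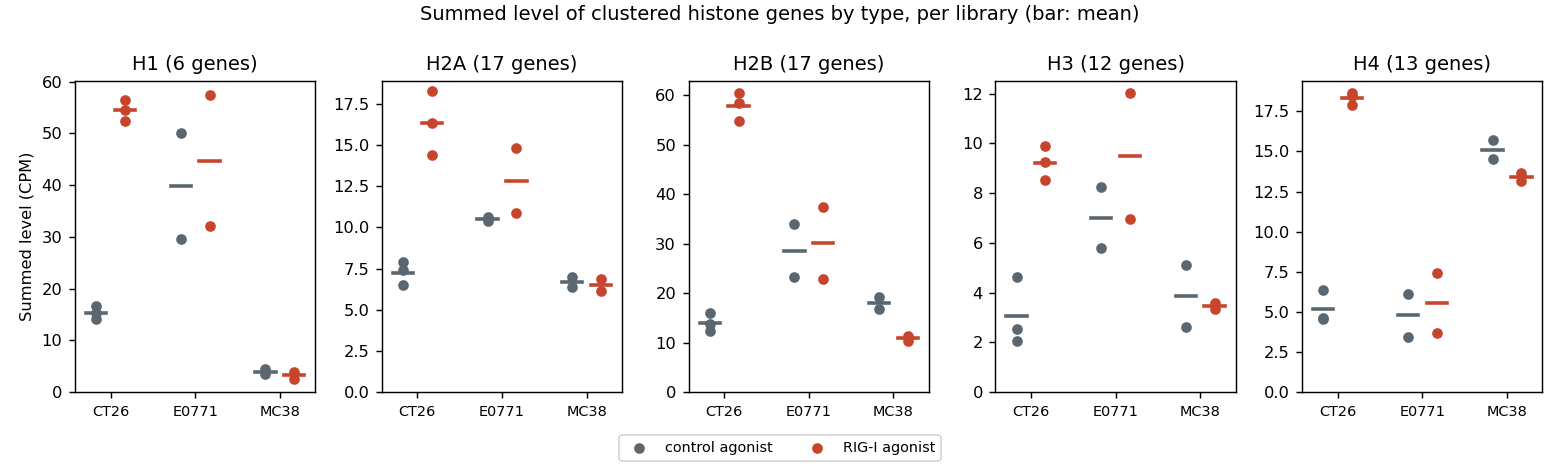
Summed level in CPM of the member genes of each histone type (one panel per type), with 1 point per library, grey for control agonist and red for RIG-I agonist, and a bar at the group mean. In CT26 every RIG-I library lies above every control library in all 5 panels, whereas in MC38 the H2B and H4 points of the RIG-I libraries lie below the controls.

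In CT26 the difference was seen in annotated transcripts of every kind. Summed levels of the members whose transcripts run past the stem-loop had a ratio of 3.45, those ending within 100 bases of it 2.80, those without a stem-loop but with a long 3′ UTR 3.95 and those without a stem-loop and with a short 3′ UTR 3.25. RIG-I libraries lay above the controls in each of these classes. The Hist1 members summed to a ratio of 3.79, Hist2 to 3.28, Hist3 to 1.83 and Hist4 to 1.63. Reads of a polyadenylated transcript can be assigned to a shorter model of the same gene, so the classes describe the annotation and not the ends of the RNA in these cells.

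In edgeR's quasi-likelihood test over the whole CT26 table, 48 members passed the filter on low counts, and 37 of these were called higher at an adjusted p under 0.05 and none lower. Of 13893 genes tested, 19.8% were called higher and 18.6% lower. Unadjusted p-values under 0.05 gave 40 members higher and 0 lower, and DESeq2 called 33 higher and 0 lower. The median log2 fold change of the 48 was 1.93, against 0.00 over all genes tested, and it was 1.93 also with Hist1h2br, which had no control count, at its lower bound. The filter itself let 29 of the 48 pass through their level in the RIG-I libraries, so their counts and median had to lie high. Of the 16 members that pass in the control libraries alone, 14 were called higher, with a median of 2.01. Over all 65 members, tested or not, the RIG-I libraries lay wholly above the controls in 44 and wholly below in 1, against 19.3% above and 22.3% below among 19612 genes with 10 summed counts. Of the 20 tested members with more than 50% words of their own, 18 were called higher. Among these 20, 8 passed the filter only with the RIG-I libraries. All 10 that pass in the control libraries alone were called higher.

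**Figure D2:**
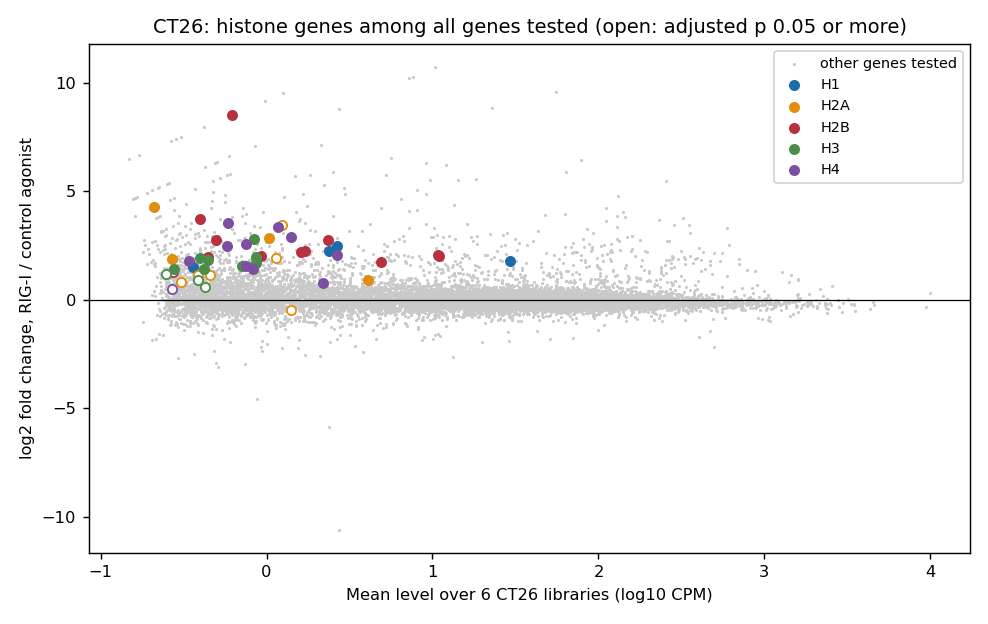
Log2 fold change of RIG-I over control agonist in CT26 against the mean level over the CT26 libraries (log10 CPM), with 1 point per gene tested; members are coloured by histone type, filled where called and open where not. Members lie at low to middle levels and mostly above 0, with Hist1h1c, the H1 gene farthest to the right, at 1.80.

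All 4 tested H1 genes rose in CT26. Hist1h1c (chr13:23738808-23740367), the gene of a main somatic linker histone, had 13.7, 12.7 and 13.9 CPM in the control libraries and 44.7, 47.1 and 44.2 CPM in the RIG-I libraries. The groups stood far apart, with a log2 fold change of 1.80 ± 0.07 (SE, n = 3, edgeR adjusted p = 1.1e-10). Hist1h1d had 0.785, 0.841 and 0.927 CPM under control agonist and 3.93, 3.73 and 4.15 CPM under RIG-I agonist, again without overlap (log2 fold change 2.25 ± 0.17). Hist1h1e rose by 2.45 ± 0.39 on the log2 scale, and Hist1h1b was called higher although its groups overlapped (edgeR adjusted p = 0.0292). Hist1h1t, the testis linker histone, had no count in the controls and 17 in the RIG-I libraries, at least 5.74-fold higher when 3 counts are set against the controls, and it was not tested.

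Of the H2B genes, 11 of 12 tested rose. Hist2h2be (chr3:96221119-96223738) stood at 3.66, 4.47 and 4.64 CPM in the controls and at 17.9, 16.9 and 17.5 CPM in the RIG-I libraries. Its log2 fold change was 2.08 ± 0.10 (SE, edgeR adjusted p = 6.2e-10), and nearly all of its sequence is its own. Hist1h2bc (chr13:23684199-23692908) went from 4.54, 4.13 and 4.64 CPM to 18.2, 18.5 and 15.2 CPM, a log2 fold change of 2.01 ± 0.10. Hist1h2be, at 0.523, 0.473 and 0.873 CPM against 5.12, 3.63 and 3.42 CPM, had 2.74 ± 0.25. These 3 genes showed no overlap between the groups. Hist1h2br is nearly identical to Hist1h2bq, and reads of the pair can be divided either way. Hist1h2br alone had 0 counts in the controls and 136 in the RIG-I libraries, at least 45.9-fold higher when 3 counts are set against the control group. The pair summed to 2.32 ± 0.434 CPM under control agonist and 8.70 ± 0.466 CPM under RIG-I agonist, 3.76-fold higher. Hist1h2bn (log2 fold change 3.70 ± 0.82) and Hist1h2bk (2.77 ± 0.43) were also among the 13 largest changes.

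H2A genes were called least often, 4 of 10 tested. Hist1h2ac (chr13:23681467-23683948) was even within each group, at 0.262, 0.263 and 0.245 CPM in the controls and 1.82, 1.71 and 1.92 CPM in the RIG-I libraries. It rose by 2.85 ± 0.25 on the log2 scale. Hist1h2ad had 2 control counts and 44 RIG-I counts, a ratio of 22.3 with an exact 95% counting interval of 5.81 to 190, and was called. Hist3h2a (chr11:58954685-58956830), which is transcribed outside the large clusters, rose by 0.91 ± 0.13, from 2.59, 2.94 and 3.14 CPM to 5.37, 5.44 and 4.91 CPM. Hist2h2aa1 and Hist2h2aa2 are a near-identical pair with opposite fitted directions (-0.49 and 1.93, neither called), and their sum was 2.15 ± 0.416 CPM against 2.95 ± 0.297 CPM. Hist1h2ao showed the RIG-I libraries above the controls, with 2.44, 3.47 and 0.884 CPM against 0.233, 0 and 0.409 CPM, but missed the threshold (edgeR adjusted p = 0.0562).

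Of the H3 genes, 8 of 11 tested rose, but 10 of the 11 passed the filter only with the RIG-I libraries, and the 1 that passes in the controls alone was not called. Of the H4 genes, 10 of 11 rose. Of these 11, 8 passed only with the RIG-I libraries, and 3 of 3 that pass in the controls alone were called. By the same measure 3 of 3 H1, 1 of 2 H2A and 7 of 7 H2B genes that pass in the controls alone were called. Hist1h3d stood at 0.145, 0.210 and 0.300 CPM in the controls and at 1.49, 1.37 and 1.56 CPM in the RIG-I libraries, without overlap, with a log2 fold change of 2.77 ± 0.30. The other H3 genes called had log2 fold changes of 1.39 to 1.95. Hist1h4c had the largest fold among H4 genes, 3.55 ± 0.45, from 0.0582, 0.0263 and 0.191 CPM to 1.06, 1.10 and 1.07 CPM. Hist1h4n (3.37 ± 0.28), Hist2h4 (2.86 ± 0.27), Hist1h4j (2.56 ± 0.34) and Hist1h4h (2.45 ± 0.33) followed. Hist1h4i (chr13:22040636-22041362) rose by 2.04 ± 0.20. Hist4h4 (chr6:136801553-136804415) rose by 0.75 ± 0.18, the smallest change among the called members, from 1.80, 1.58 and 1.61 CPM to 2.93, 2.89 and 2.32 CPM. Hist1h4f did not pass the test (0.50 ± 0.41). Hist1h4k was called with 1.41 ± 0.47 (edgeR adjusted p = 0.0378), with 2.20 CPM in RIG-I replicate 3 against 0.569 and 0.815 CPM in the other RIG-I libraries. Without that library its log2 fold change was 0.64 (adjusted p = 0.199), and the call was lost without any 1 of the control libraries too (highest adjusted p = 0.136). Of the 37 members called in CT26, 25 were followed through the alternative analyses, picked for the largest changes or the highest levels. Apart from Hist1h4k, these 24 were called in each alternative that tested them. The remaining called members were not followed one by one. Without RIG-I replicate 2, 29 members in all were called higher.

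In E0771 no member was called in either direction. Of 25 members tested by edgeR 0 were called higher and 0 lower, where 1.53% of 11728 genes were called higher and 0.0256% lower. Unadjusted p-values under 0.05 gave 1 higher and 0 lower, and DESeq2 called 0. The median log2 fold change of the 25 was 0.15. Over all 65 members the RIG-I libraries lay above the controls in 14 and below in 7, against 16.1% above and 16.3% below among genes with 10 summed counts. Hist1h1c stood at 48.7 and 28.0 CPM under control agonist and at 54.2 and 30.2 CPM under RIG-I agonist, and Hist1h2bc at 17.3 and 10.5 CPM against 21.5 and 12.4 CPM. In both genes the RIG-I library was above the control library of the same number. The libraries numbered 1 were the higher ones of either agonist, and the groups overlapped. The same order held for the sum over all members, and 24 of 33 members with 10 or more counts under control agonist and 33 of 37 under RIG-I agonist were higher in replicate 1. Hist3h2a had the smallest p of the tested members, with 2.72 and 2.41 CPM against 5.85 and 5.05 CPM, a log2 fold change of 1.10 ± 0.32 (SE, n = 2, edgeR adjusted p = 0.315). It was called in 2 of 9 alternatives, one of them with the spread shared by all lines (adjusted p = 0.0105). Hist1h4n, at 0.453 and 0.241 CPM against 0.988 and 0.925 CPM, had a larger log2 fold change that was not called (1.44 ± 0.60). Hist2h4 was not tested, with 2 control and 15 RIG-I counts, a ratio of 7.09 with an exact 95% counting interval of 1.65 to 63.9. Hist4h4, at 0.679 and 0.401 CPM against 0.228 and 0.213 CPM, was lower in both RIG-I libraries and not tested. Hist2h2be, at 7.84 and 7.38 CPM against 6.08 and 4.91 CPM, was lower in both RIG-I libraries and not called (-0.46 ± 0.26).

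In MC38 the only calls were of lower levels, for 2 H2B genes. Of 14 members tested, 0 were called higher and 2 lower, where 18.9% of 12387 genes were called higher and 16.9% lower, so that the share of members called lower was near the background. No member had a higher value at an unadjusted p under 0.05, and DESeq2, which tested 8 members, called 0 in either direction. Hist2h2be fell from 8.01 and 6.31 CPM to 3.91 and 4.54 CPM, a log2 fold change of -0.76 ± 0.19 (SE, n = 2, edgeR adjusted p = 0.00294). Hist1h2bg fell from 3.41 and 2.78 CPM to 1.60 and 2.01 CPM (-0.76 ± 0.27, adjusted p = 0.0339), a call lost in 5 of 9 alternatives, among them without control replicate 1, RIG-I replicate 1 or RIG-I replicate 2 (highest adjusted p = 0.646). Without control replicate 1 no member was called lower, and without RIG-I replicate 2 only 1 was. Without control replicate 2, 1 member was called higher. Hist1h2bc, at 1.39 and 1.35 CPM against 0.799 and 0.775 CPM, and Hist1h1c, at 2.33 and 2.48 CPM against 1.52 and 1.76 CPM, were lower in both RIG-I libraries without passing the test (-0.80 ± 0.37 and -0.54 ± 0.29). Hist1h4i, at 11.7 and 11.0 CPM against 9.98 and 10.6 CPM, had -0.14 ± 0.12. Over all 65 members the RIG-I libraries lay below the controls in 14 and above in 3, against 26.8% below and 25% above among genes with 10 summed counts.

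The difference between lines was tested as an interaction over all 14 libraries, with 44 members passing the filter. The effect was higher in CT26 than in E0771 for 5 members and lower for 0, where 1.06% of 14657 genes were called higher and 2.81% lower. It was higher in CT26 than in MC38 for 8 members and lower for 0, where the background was 1.98% higher and 1.82% lower. Unadjusted p-values under 0.05 gave 16 and 22 higher and none lower. When the control libraries alone were filtered, 25 members passed. Members that passed through a high level in the CT26 RIG-I libraries had to lean toward a higher effect in CT26. The counts and directions above are therefore partly set by the filter. Without a filter on low counts, 65 members were tested, with 4 and 7 called higher and 0 lower. DESeq2 called 6 and 11, all higher. For Hist2h2be the effects differed by 2.50 ± 0.22 on the log2 scale from E0771 and by 2.79 ± 0.22 from MC38 (edgeR adjusted p = 5.2e-05 and 3.0e-05), and both were called in all 18 alternatives. Hist1h2bc differed by 1.69 ± 0.32 and 2.77 ± 0.47, and Hist1h1c by 1.62 ± 0.33 and 2.29 ± 0.50. The Hist1h1c difference from MC38 was lost in 9 of 18 alternatives, 8 of them with 1 library of CT26 or MC38 left out. Between E0771 and MC38 edgeR and DESeq2 called 0 members, where edgeR called 1.81% of all genes higher and 0.3% lower in E0771, and 4 members had an unadjusted p under 0.05.

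**Figure D3:**
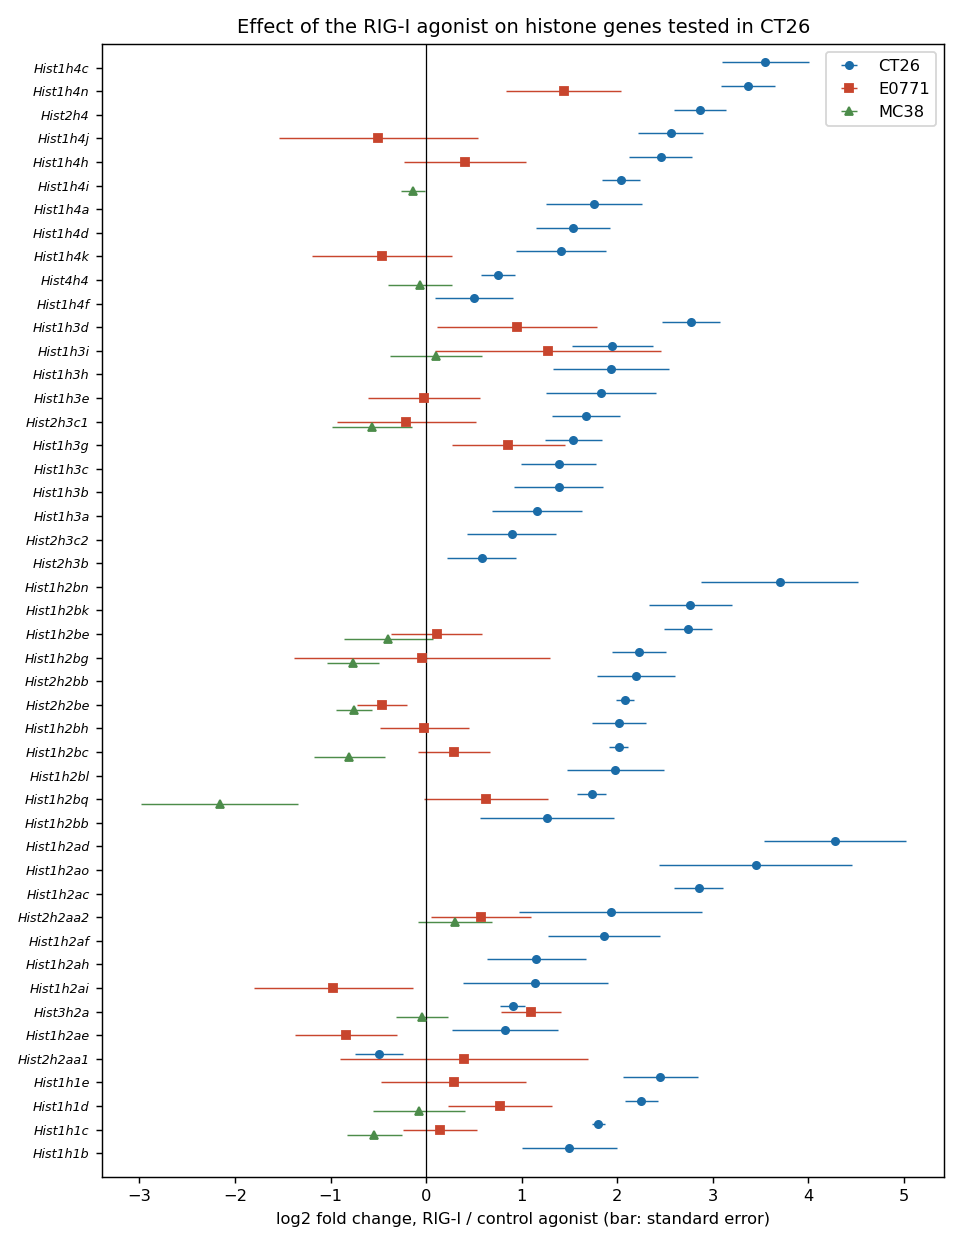
Log2 fold change of RIG-I over control agonist with its standard error for each member tested in CT26 (1 line per gene, ordered by type and by the CT26 value), with CT26 in blue, E0771 in red and MC38 in green where tested; Hist1h2br, which had no control count in CT26, is left out. The blue points lie at 0.50 or above except Hist2h2aa1 at -0.49, while red and green points lie on both sides of 0.

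The lines also differed in which members they expressed. Per kb of the longest annotated transcript, Hist1h1c had the highest level in CT26 (18.8 CPM per kb, mean over both agonists) and in E0771 (25.8), followed in both by Hist1h2bc (9.41 and 13.4). In MC38 Hist1h4i led with 14.9 CPM per kb, and Hist1h1c had 1.30. H1 genes made up 34.2% of the summed CPM under control agonist in CT26 and 43.9% in E0771, but 8.28% in MC38, where H4 genes made up 31.8%. Within the control groups, edgeR called 3 of 44 members higher and 11 lower in CT26 than in E0771, where 37.2% and 33.1% of 14657 genes were called. Against MC38, 3 were higher and 6 lower in CT26 (background 37.8% and 35.8%), and 8 were higher and 4 lower in E0771 (background 31.5% and 32.6%). Each of these shares was below the background, but the filter had used the RIG-I libraries too. With only the control libraries fitted, 25 members were tested. Of these, 9 were lower in CT26 than in E0771 (4624 of 13828 genes), slightly above the background. In E0771 7 were higher than in MC38 (4275 of 13828 genes), slightly below it. The other counts were 2 to 4 of 25, below theirs. In the fit of all 14 libraries, Hist1h1c was higher than in MC38 by 3.99 ± 0.33 on the log2 scale in E0771. In CT26 it was higher than in MC38 by 2.48 ± 0.32. Hist1h2bc was higher than in MC38 by 3.34 ± 0.32 in E0771 and by 1.69 ± 0.30 in CT26. Under control agonist Hist2h2be had 4.26 ± 0.519 CPM in CT26 (n = 3), 7.61 ± 0.331 in E0771 and 7.16 ± 1.2 in MC38 (n = 2 each), lower in CT26 than in both. The 17.4 ± 0.499 CPM of CT26 under RIG-I agonist lay above the libraries of the other lines.

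**Figure D4:**
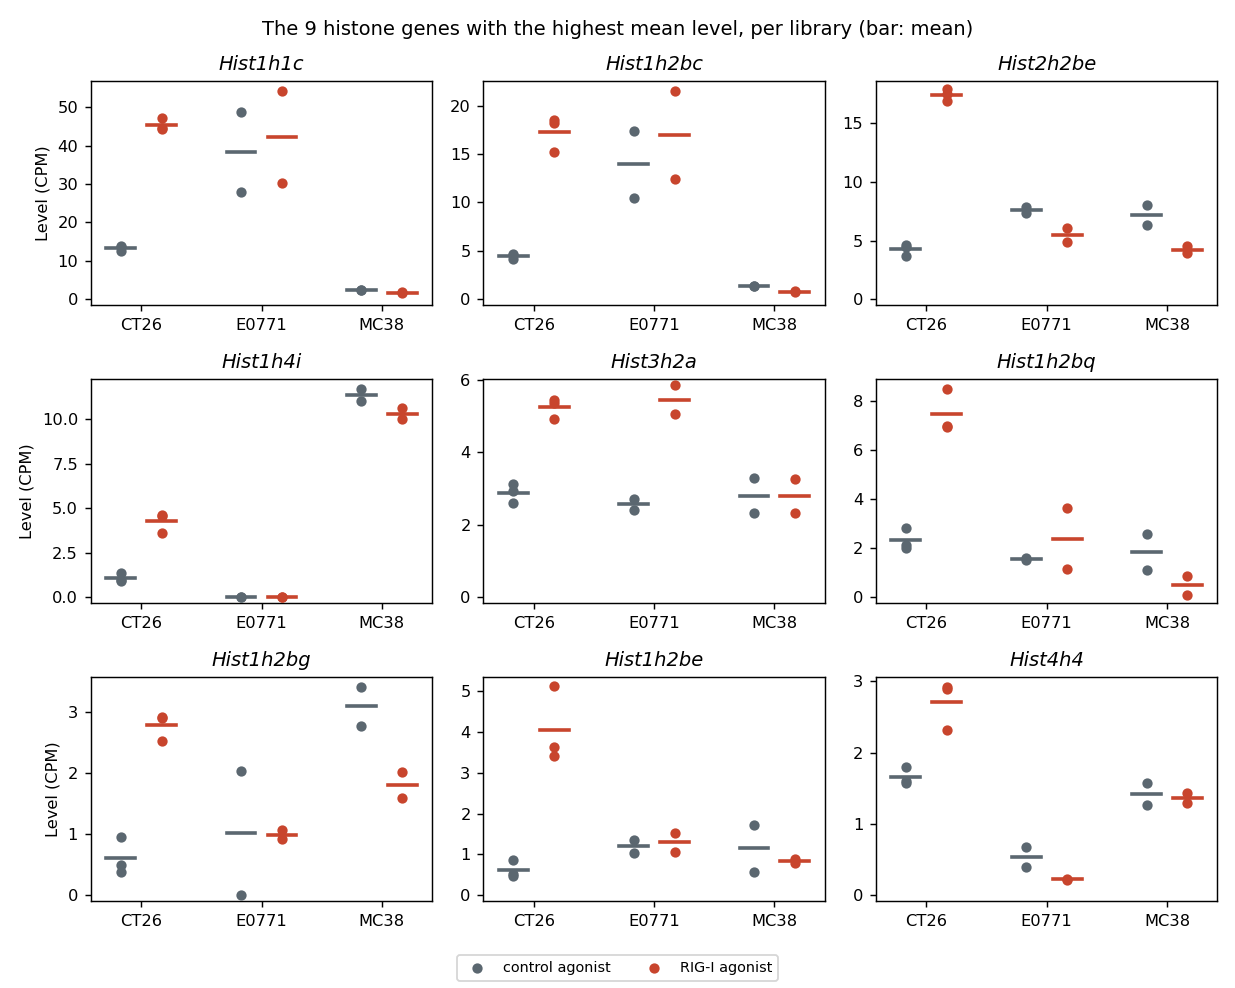
Level in CPM of the 9 members with the highest mean level over the 14 libraries, with 1 point per library (grey control agonist, red RIG-I agonist) and a bar at the group mean. Hist1h4i is at 0 in E0771 and highest in MC38, Hist1h1c is highest in E0771 and in the CT26 RIG-I libraries, and in E0771 the points of a group are widely spaced for Hist1h1c and Hist1h2bc.

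Hist1h4i had 0 counts in all 4 E0771 libraries, against 117 in the CT26 controls and 332 in the MC38 controls. Its control level was at least 9.20-fold higher in CT26 and at least 97.7-fold higher in MC38, when 3 counts are set against the E0771 control group. It lies in a stretch of chromosome 13, chr13:21833743-22043676, from Hist1h2br to Hist1h2bj, in which E0771 held almost no counts. The stretch has 9 genes with 10 or more summed counts, 6 of them members, and together they held 14 counts in E0771, 1521 in CT26 and 1664 in MC38. Hist1h2br, Hist1h2ah, Hist1h2bk, Hist1h4i and Hist1h2bj had 0 counts in E0771 and Hist1h2ag had 2. Of the genes among them that are no histones, Prss16, a protease gene, had 0 counts in E0771 and 564 in MC38, and the zinc-finger gene Zfp184 had 1 and 302. Of the 14 E0771 counts, 11 were those of the processed pseudogene Gm11281. On one side of the stretch the members Hist1h2ap and Hist1h4n had 34 and 35 counts in E0771. On the other side Vmn1r188 had 13 and Vmn1r203 had 139. Hist1h2ap and Hist1h4n have 6.64% and 12.5% words of their own, so their counts may be reads shared with other genes. Within the stretch this share is 10.5% for Hist1h2br and 8.8% for Hist1h2ah, so their 0 counts are uncertain too, and 64.7% for Hist1h4i. Over all members, 6 had 0 counts in E0771, 5 of them in this stretch. The genes of this stretch were picked out after their values were seen, and no cause was tested.

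**Figure D5:**
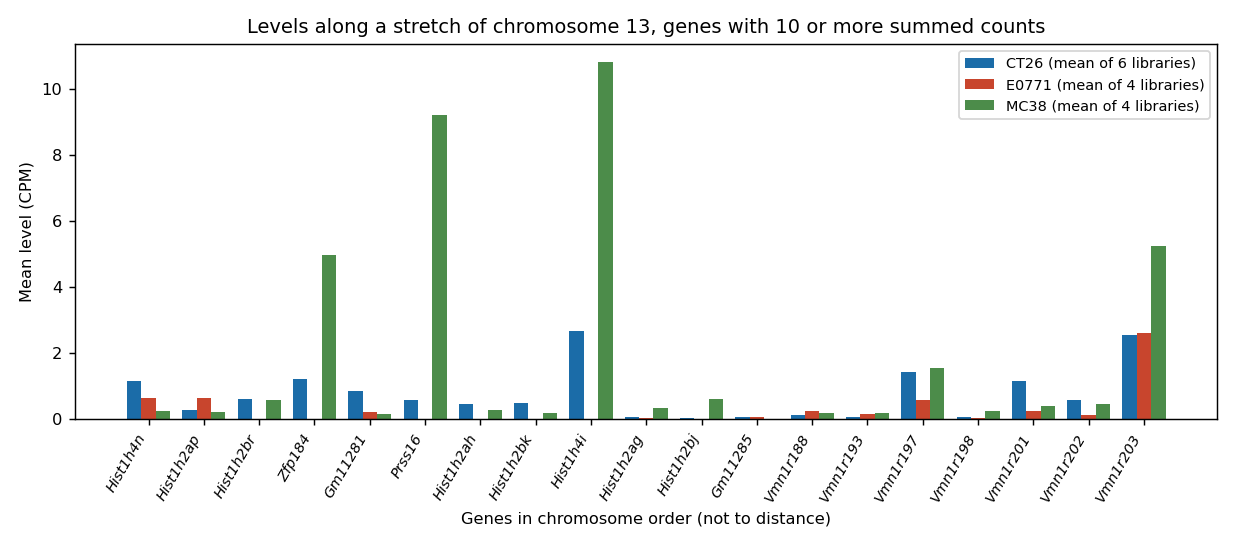
Mean level in CPM over all libraries of each line for genes in their order along chromosome 13 from Hist1h4n to Vmn1r203, with the spacing not to distance. The E0771 bars are at or near 0 from Hist1h2br to Hist1h2bj, apart from the pseudogene Gm11281, while MC38 has its highest bars there at Hist1h4i and Prss16.

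Of 19 tested genes for histone mRNA transcription and 3′ end processing, 3 were called higher and 1 lower in CT26, against 19.8% and 18.6% of all genes, with a median log2 fold change of 0.02. Slbp, which encodes the stem-loop binding protein, had 138 ± 3.99 CPM under control agonist and 147 ± 3.18 under RIG-I agonist in CT26 (log2 fold change 0.14 ± 0.05, SE, n = 3, edgeR adjusted p = 0.0428). The call was lost in 8 of 11 alternatives, among them the leaving out of control replicate 2 or of any 1 RIG-I library, with adjusted p-values over all alternatives of 0.02 to 0.471. Npat, the coactivator of histone gene transcription, had -0.01 ± 0.06. Lsm10, a subunit of the U7 particle that cuts histone pre-mRNA, rose by 0.34 ± 0.08, and Srrt, part of the cap-bound complex that promotes this cleavage, rose by 0.27 ± 0.06. Cstf2, a cleavage factor subunit, fell by 0.20 on the log2 scale. Of 21 tested genes of the poly(A) tail and cleavage machinery, 3 rose and 3 fell in CT26, among them Pabpc1, the poly(A)-binding protein gene (-0.37 ± 0.07), and Zcchc7 and Tut1 (0.31 ± 0.07 each).

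The replication-independent histone genes, which carry introns or poly(A) tails and are made outside S phase too, were called in both directions. Of 9 tested in CT26, 1 rose and 4 fell, where 19.8% of all genes tested were called higher and 18.6% lower. H3f3b, a gene of the variant H3.3, rose by 0.39 ± 0.06, from 878 ± 9.58 to 1110 ± 35.0 CPM. H2afz fell by 0.39, H2afv by 0.33, Cenpa, the centromeric H3 variant, by 0.25 and H3f3a by 0.25 on the log2 scale. The H3f3a call was lost without control replicate 2 or RIG-I replicate 1 (log2 values of -0.21 to -0.32 over all left-out libraries). Of 22 histone chaperone genes, 2 rose and 4 fell in CT26, against the same shares of all genes. Daxx, an H3.3 chaperone gene that interferon induces, rose by 2.52 ± 0.07 in CT26, 1.83 ± 0.13 in E0771 and 1.36 ± 0.04 in MC38. Asf1a rose by 0.27 ± 0.06 in CT26.

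Cell cycle genes are given beside the CT26 result because clustered histone genes are tied to S phase, and their part in it was not tested. Of all genes tested, 19.8% were called higher and 18.6% lower in CT26, and 18.9% and 16.9% in MC38. Of 32 S phase and DNA replication genes, 7 rose and 2 fell in CT26, with a median of 0.04, and the sum over the list was 5516 to 5768 CPM in the controls and 5517 to 5673 CPM in the RIG-I libraries. Of 18 mitosis genes 0 rose and 11 fell in CT26, and 0 rose and 9 fell in MC38. Mki67, a proliferation marker, fell by 0.21 ± 0.06 in CT26, a call lost without control replicate 2 or RIG-I replicate 2 (highest adjusted p = 0.0532), and by 0.47 ± 0.04 in MC38. In E0771 edgeR called 0 genes of these 2 lists, where it called 1.53% of all genes higher and 0.0256% lower. The E0771 mitosis genes summed to 3120 to 3531 CPM in the controls and 2344 to 2874 CPM in the RIG-I libraries. Their median log2 fold change was -0.35, against -0.20 in CT26 and -0.09 in MC38. For the S phase list the E0771 sums overlapped, with a median of -0.13. Mki67 in E0771 stood at 152 ± 14.7 against 92.9 ± 11.9 CPM (edgeR adjusted p = 0.191, called in 3 of 9 alternatives, among them the shared spread and DESeq2). Of 13 tested arrest genes, 3 rose and 6 fell in CT26, with a median of -0.07. Btg2 rose by 2.01 ± 0.10 and Gadd45a by 0.66 ± 0.06 in CT26, where Rb1 fell by 0.65 on the log2 scale. Cdkn1a, the p21 gene, had 0.14 ± 0.05 in CT26 (adjusted p = 0.052) and rose by 1.44 ± 0.13 in E0771.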

How the data were processed

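The authors deposited 3 tables of estimated counts per gene, 1 for each line. Salmon, DESeq2 and the build GRCm38 are listed in the submitters' processing notes. Their roles and versions are not given in the sources used here. Between 69.1% and 85.3% of the deposited values in a library were exactly whole, and all were rounded before testing. Columns were matched to samples by the names in the labels. Gene identifiers were matched to GENCODE M21 without their version suffix (34582 matched, 284 not). The members and all gene lists were chosen with earlier results of these data known.

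RIG-I and control agonist were compared within each line with edgeR 4.0.16 (R 4.3.3): TMM scaling, filterByExpr at a minimum count of 10, trended dispersions with robust quasi-likelihood F tests, and p-values adjusted by Benjamini-Hochberg across every tested gene, with an adjusted p under 0.05 called. Interactions and differences between control groups came from 1 fit of all 14 libraries. This fit shares 1 spread (common dispersion 0.0149) over lines that differ in theirs (0.0104 in CT26, 0.041 in E0771, 0.000927 in MC38). The steps were tested on simulated counts. Levels are CPM on TMM-scaled sizes of all 14 libraries, so ratios of levels differ slightly from fitted fold changes. Standard errors are the absolute log2 fold change divided by the square root of F. Lower bounds use 3 counts over the group at 0, and intervals and bounds cover counting error only. Depth limits members under about 10 counts. DESeq2 1.42.0 with its Wald test, its size factors in edgeR, no filter, a shared spread, a replicate block and each library left out were the alternatives.

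Named were the called members of a line (the 13 largest changes where more than 26 were called), the 12 with the highest level, also per kb, those with called interactions or control differences (up to 10 and 8 a pair of lines), members with transcripts past the stem-loop or near the count minimum, up to 4 called genes per other list and direction, and Slbp, Npat, Cdkn1a, Mki67 and the agonist response genes. Other members named as examples, and the neighbours on chromosome 13, were chosen after their values were seen.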

Additional observations from a re-analysis of the deposited data

Results flagged for a closer look

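For 13 results the effect of the RIG-I agonist on a member differed between 2 lines by the interaction test of edgeR (adjusted p under 0.05). The difference of log2 fold changes, CT26 minus E0771, was 2.50 for Hist2h2be, 1.69 for Hist1h2bc, 1.62 for Hist1h1c, 2.59 for Hist1h2be and 3.43 for Hist2h2bb. CT26 minus MC38, it was 2.79 for Hist2h2be, 2.13 for Hist1h4i, 2.77 for Hist1h2bc, 3.11 for Hist1h2be, 2.30 for Hist1h1d, 3.53 for Hist1h2ac, 3.80 for Hist1h2bq and 2.29 for Hist1h1c. The differences of Hist2h2be from both lines, of Hist1h2bc from E0771 and of Hist1h4i from MC38 were called in all 18 alternatives. That of Hist2h2bb was called in 6 of 18, with adjusted p-values of 0.00241 to 0.0957, that of Hist1h2be from E0771 in 10 of 18 (highest adjusted p 0.0857), and that of Hist1h2bq in 10 of 18. Hist1h2bq shares nearly all of its sequence with Hist1h2br.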

How the results depend on the processing

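The count of members called higher in CT26 was 29 to 41 with 1 library left out, and none was called lower then. Without a filter on low counts 1 member, Hist1h4m, was called lower in CT26. In E0771, 1 member (Hist3h2a) was called higher with the spread shared by all libraries and 1 with the replicate block, and 0 with any library left out. In MC38, 1 was called lower with the shared spread and 0 by DESeq2. With 1 library left out, 0 to 3 were called lower in MC38 and 0 to 1 higher. For each gene, the deviation of a library's log CPM from the mean of its agonist group was taken. These deviations correlated between same-numbered libraries by 0.092, 0.084 and 0.262 in CT26, 0.639 in E0771 and -0.018 in MC38. In the last 2 lines the 2 deviations of a group mirror each other, so each line gives only 1 value. The replicate numbers were not taken as a pairing in the main tests of any line. For E0771 the 1 value of 0.639 does not exclude a pairing, and unpaired tests of that line may miss changes. In E0771 the replicate block raised the calls over all genes from 180 higher and 3 lower to 1243 and 1215, and it called Hist3h2a (adjusted p = 0.00853) and Mki67 (1.7e-05). In CT26 only replicate 3 correlated best with its own number among the 3. With the replicate block the effect differed for 8 members between CT26 and E0771, 15 between CT26 and MC38, and 1 between E0771 and MC38. With 1 library left out these 3 counts were 3 to 7, 4 to 10 and 0 to 1. Between control groups, leaving out 1 library gave 2 to 5 higher and 7 to 13 lower in CT26 than in E0771, 2 to 4 higher and 5 to 8 lower in CT26 than in MC38, and 6 to 10 higher and 3 to 4 lower in E0771 than in MC38. With only the control libraries fitted, 2 were lower in E0771 than in MC38. On total counts in place of TMM-scaled sizes, the E0771 control sum of H2A was 10.7 CPM. The causes were not tested. Where 1 library is left out in E0771 or MC38, the lone library is assumed to vary like the others.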
